A study of Mus musculus with 14 samples.

Results

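Alternatively activated macrophage effectors are described here as a set of 7 genes, Arg1, Chil3, Chil4, Retnla, Mrc1, Mgl2 and Egr2, chosen by name from the 54347 genes of the count tables, with earlier results of these data known. Their RNA was measured in 14 libraries of whole mouse lung, in 3 experiments on the part that sensory nerves and a JAK1 variant play in allergic lung inflammation. Every animal was C57BL/6 and received extract of the mould Alternaria alternata through the nose, 2 mg per dose in 40 µl, on 4 days in a row (day 0 to day 3), so no library comes from an unchallenged lung. In the first experiment, irradiated recipients labelled human JAK1 GOF (gain of function, n = 2) or WT (wild type, n = 2) were given WT bone marrow. The variant is therefore carried by the cells the host keeps after irradiation. Neither the promoter of the JAK1 variant nor the share of host cells left in the lung is given in the labels. In the second experiment, WT mice were injected intrathecally with resiniferatoxin (RTX, a TRPV1 agonist that ablates TRPV1-expressing sensory neurons), 25 ng per mouse on 2 days (n = 3), or with 10 µl saline as vehicle (n = 2). The design text calls this a selective denervation of spinal visceral afferents. In the third, WT mice were injected subcutaneously with 30, 70 and 100 µg/kg RTX over 3 days (n = 3), or with 100 µl saline as vehicle (n = 2), which the design text calls systemic. The labels do not say whether replicates are separate animals, so p-values measure only the spread between libraries, which may be technical.

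Alternative activation is the state that macrophages take up under the type 2 cytokines IL-4 and IL-13, which act through JAK kinases, JAK1 among them, and the transcription factor STAT6. Arg1 encodes arginase, which splits arginine into ornithine and urea. Chil3 (Ym1) and Chil4 (Ym2) encode secreted chitinase-like proteins without chitinase activity, and Retnla encodes the secreted protein RELM-alpha (FIZZ1). Mrc1 encodes the mannose receptor CD206, Mgl2 the galactose-type lectin CD301b, and Egr2 a zinc finger transcription factor induced early in the response. None of them is confined to macrophages: Arg1 is also made by group 2 innate lymphoid cells, Chil3 by neutrophils, Retnla by airway epithelium, and Mgl2 by dendritic cells.

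The members lie on 5 chromosomes of GRCm38, as annotated in GENCODE M21. Arg1 (chr10:24915221-24927484, minus strand) and Egr2 (chr10:67535475-67542188, plus) share chromosome 10, and Chil3 (chr3:106147554-106167564, minus) and Chil4 (chr3:106201490-106219507, minus) are neighbours on chromosome 3. Retnla is at chr16:48842551-48844461 (plus), Mrc1 at chr2:14229392-14332057 (plus, overlapping the microRNA gene Mir511) and Mgl2 at chr11:70130329-70137550 (plus). Chil3 and Chil4 are close copies: 28.9% of the distinct 31-base stretches of Chil3 transcripts also occur in Chil4, and 41.5% occur in some other gene. For Mgl2, 19.3% of the stretches occur in its paralog Clec10a. How reads were divided within these pairs is therefore uncertain, whereas Arg1 and Mrc1 shared no stretch with another gene.

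The 250 bases before the transcription start are shown for Chil3, Chil4 and Retnla, the secreted members, because Chil3 and Chil4 are copies whose counts were in unequal proportion across the groups and because alternative activation runs through STAT6. Sequences are from RefSeq (GRCm38.p6), written 5′ to 3′ on the gene's strand. Capitals mark matches, searched on both strands, to TTCNNNGAA, a general STAT motif, and to the spacing preferred by STAT6, TTC and GAA with 4 bases of any kind between them.
Chil3 (chr3:106167565-106167814): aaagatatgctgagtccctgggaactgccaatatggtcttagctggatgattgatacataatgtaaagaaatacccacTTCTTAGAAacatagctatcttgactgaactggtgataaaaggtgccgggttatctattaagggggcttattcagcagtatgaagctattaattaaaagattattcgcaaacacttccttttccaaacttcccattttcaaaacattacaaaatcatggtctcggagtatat
Chil4 (chr3:106219480-106219729): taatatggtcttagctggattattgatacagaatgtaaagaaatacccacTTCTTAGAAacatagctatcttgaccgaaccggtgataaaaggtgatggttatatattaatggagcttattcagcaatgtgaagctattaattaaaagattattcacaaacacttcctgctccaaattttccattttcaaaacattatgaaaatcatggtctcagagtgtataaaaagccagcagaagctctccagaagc
Retnla (chr16:48842359-48842608): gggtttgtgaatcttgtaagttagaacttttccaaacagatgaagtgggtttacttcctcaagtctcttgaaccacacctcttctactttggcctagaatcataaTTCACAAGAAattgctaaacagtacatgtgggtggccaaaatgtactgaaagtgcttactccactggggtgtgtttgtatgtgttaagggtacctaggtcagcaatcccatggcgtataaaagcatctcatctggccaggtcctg
Chil3 and Chil4 share 201 of 221 aligned bases (91.0%), and both hold TTCTTAGAA, which begins 172 bases before the start of Chil3 and 200 bases before that of Chil4. Retnla holds TTCACAAGAA, which begins 145 bases before the start. Among 32851 RefSeq promoter windows of the same length, 7.02% hold TTCNNNGAA and 5.85% hold the wider spacing. The windows of Mrc1, Mgl2 and Egr2 hold neither motif, and Arg1 is named only. GENCODE M21 places the starts of Chil4 and Retnla somewhat upstream of the RefSeq starts, inside these windows.

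Total estimated counts were 18198872 to 24393000 per library, and levels are given as counts per 1000000 of a library's total (CPM). Floors drawn from counts cover counting error only, since PCR copies are not independent molecules. The intervals of log2 fold changes rest on the spread between libraries. The alveolar type 2 cell list, which includes the surfactant gene Sftpc, summed to between 14520 and 22010 CPM in the libraries, so the defining markers of the labelled tissue were present in all 14. Mouse Jak1 had 204.5 and 190.9 CPM in the GOF recipients, against 255.6 and 280.6 CPM in the WT recipients (adjusted p = 0.206, edgeR's quasi-likelihood test with Benjamini-Hochberg adjustment over all genes); the tables list mouse genes only, so this is no check of a human JAK1 variant. A pair of transcripts that no group label predicts, Rps3a2 and Hmga2, split the libraries: Rps3a2 was 0.0635 to 0.125 CPM in the intrathecal RTX libraries and 3.80 to 4.99 CPM in their vehicle libraries, while Hmga2 was 6.18 to 10.9 CPM in the intrathecal RTX libraries and 0.5002 to 1.09 CPM in their vehicle libraries. In the intrathecal experiment this split and RTX cannot be told apart. In the subcutaneous experiment RTX replicates 2 and 3 had Rps3a2 high (6.37 and 4.71 CPM) and Hmga2 low (0.5045 and 0.431 CPM), the first vehicle library had Rps3a2 low (0.0934 CPM) and Hmga2 high (6.14 CPM), and RTX replicate 1 and the second vehicle library had both low (Rps3a2 0.194 and 0.235 CPM, Hmga2 0.139 and 0.0494 CPM). Xist, which is transcribed from the inactive X chromosome, was 62.9 and 73.2 CPM in the GOF recipients and 122.1 and 131.6 CPM in the WT recipients, and at most 5.11 CPM in the other 10 libraries. Genes of the Y chromosome were present in the same recipient libraries. Ddx3y was 57.65 and 67.4 CPM in the GOF recipients and 74.6 and 58.3 CPM in the WT recipients. Eif2s3y was 18.1 and 51.4 CPM in the GOF recipients and 60.3 and 48.3 CPM in the WT recipients. What gave this mixture of X and Y transcripts was not tested.

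**Figure D1:**
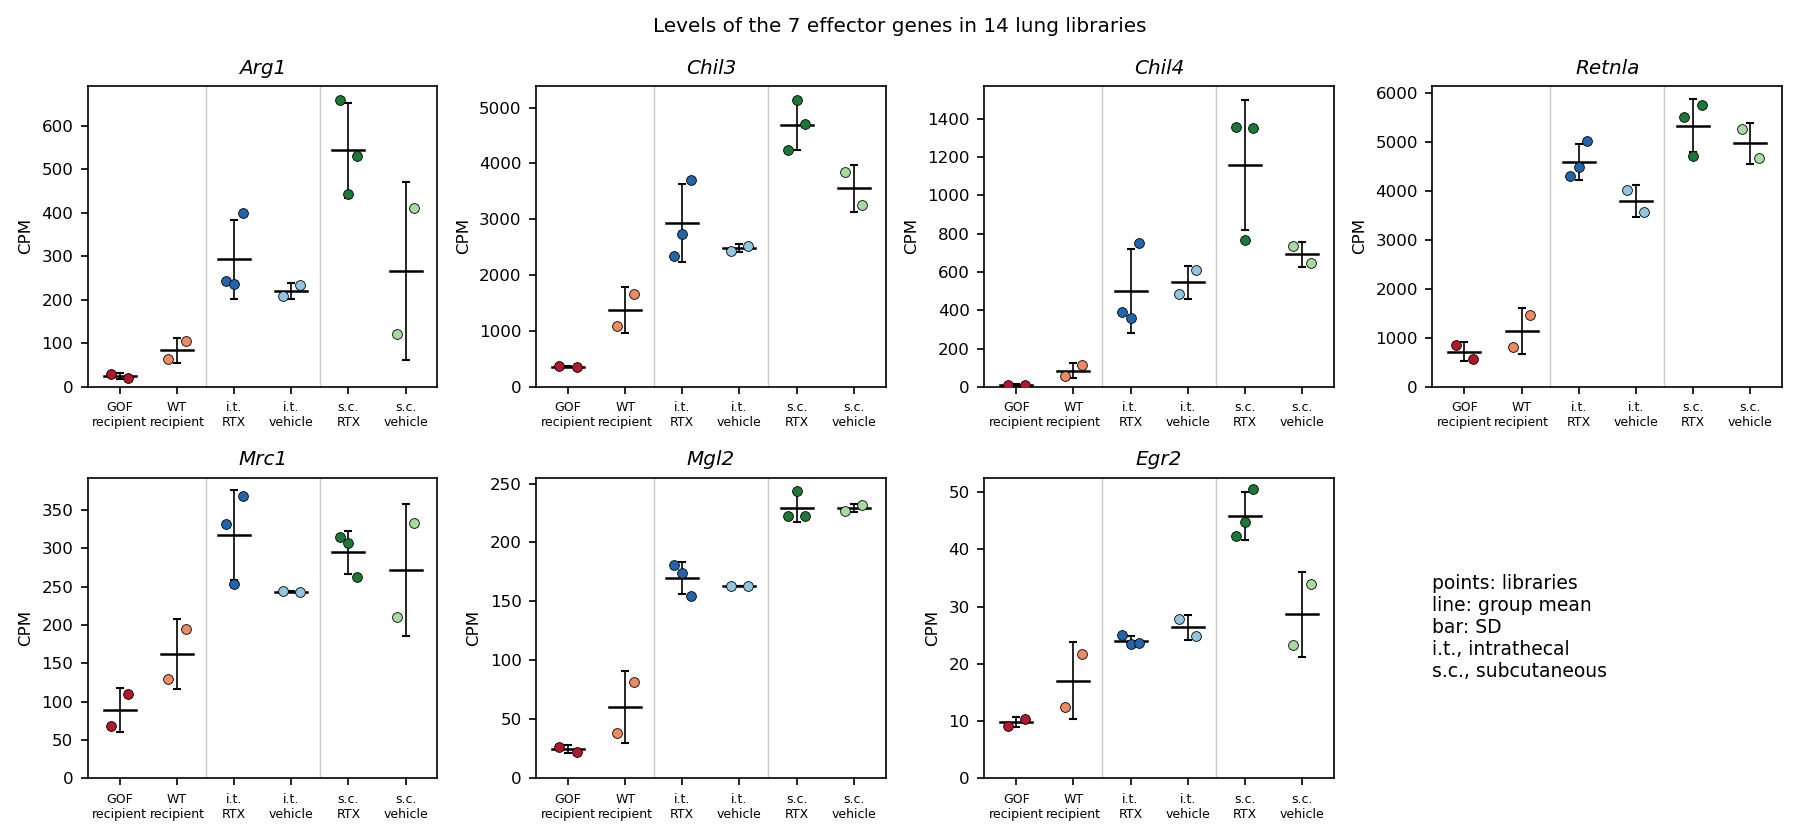
Level of each member in every library, in CPM on a linear axis from 0, with a panel for each gene and a column for each of the 6 groups; points are libraries, lines are group means and bars are SDs. In each panel the GOF recipients have the lowest mean, for Chil4 11.6 CPM against 85.1 CPM in the WT recipients.

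All 7 members were lowest in the GOF recipients and next lowest in the WT recipients, and 6 of 7 had their highest group mean after subcutaneous RTX. The exception was Mrc1, with its highest mean, 317.7 ± 58.9 CPM, after intrathecal RTX (SD, n = 3). Between the lowest and the highest group mean the level differed by a factor of 100.2 for Chil4, 21.9 for Arg1, 13.1 for Chil3, 9.27 for Mgl2, 7.47 for Retnla, 4.69 for Egr2 and 3.56 for Mrc1. Irradiated recipients and nerve-ablated mice belong to different experiments, so a difference between experiments and one between treatments cannot be told apart, and levels across them were not tested.

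Together the 7 genes took 0.136% and 0.1103% of all counts in the GOF recipients and 0.220% and 0.365% in the WT recipients. They took 0.782%, 0.826% and 1.04% after intrathecal RTX and 0.757% and 0.736% after its vehicle, and 1.23%, 1.17% and 1.29% after subcutaneous RTX and 1.04% and 0.958% after its vehicle. Among the groups ordered by mean, the ranges of neighbouring groups overlapped for the intrathecal RTX and vehicle groups in Chil3, Chil4, Mgl2 and Egr2, and for the subcutaneous RTX and vehicle groups in Retnla, Mrc1 and Mgl2. Across experiments too only neighbours in that order are listed. The subcutaneous vehicle range overlapped that of the intrathecal vehicle in Arg1, Mrc1 and Egr2 and that of intrathecal RTX in Arg1, Chil3 and Retnla. The ranges of both RTX groups overlapped in Mrc1. Groups further apart in the order could also overlap, as both RTX groups did in Retnla (intrathecal 4296 to 5008 CPM, subcutaneous 4713 to 5754 CPM). The only member whose GOF and WT recipients overlapped was Retnla. On the scale of CPM per kilobase of exon, the one on which genes can be compared, Retnla was the highest of the 7 and Chil3 the second in every group, and Egr2 was the lowest in every group. Retnla reached 8891 ± 909 CPM per kilobase after subcutaneous RTX (SD, n = 3) and Egr2 13.5 ± 1.23. Chil4 ranked 6 of 7 in the GOF recipients, 4 in the WT recipients and 3 in the other groups.

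The first experiment asks what the JAK1 variant in the host's own cells does to the lung's response. Of the members Chil3 alone passed the threshold: it fell to a mean of 359.1 ± 7.46 CPM in GOF recipients, against 1380 ± 409 CPM in WT recipients (SD, n = 2 each). Chil4, its copy, averaged 11.6 ± 0.567 CPM in GOF recipients and 85.1 ± 37.6 CPM in WT recipients without passing. All 7 members had a log2 fold change below 0, as did 49.9% of the 17298 genes tested. In 6 of 7 both GOF libraries lay below both WT libraries, as they did for 23% of genes. At an adjusted p of 0.05 in edgeR's quasi-likelihood test 1 of 7 was called, and it was lower; 0.717% of all genes were called, and 0.543% were called lower. The median log2 fold change was -1.27 over the 7 members and 0 over all genes.

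Chil3 measured 364.4 and 353.8 CPM in the GOF recipients and 1090 and 1669 CPM in the WT recipients. The GOF libraries were close together and the WT libraries were both higher and further apart. The log2 fold change was -1.94 ± 0.22 (SE; 95% interval -2.42 to -1.46), a level 3.83 times lower, with an adjusted p of 0.00547 in edgeR's quasi-likelihood test with Benjamini-Hochberg adjustment. By p it ranked 6 among the 17298 genes.

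Chil4 measured 11.96 and 11.2 CPM in the GOF recipients and 58.4 and 111.7 CPM in the WT recipients. Its WT libraries differed from each other by more than the lower one differed from the GOF libraries. The log2 fold change, -2.87 ± 0.39 (95% interval -3.96 to -1.79), was the most negative of the 7 members, but the adjusted p was 0.104 in the same edgeR test. With the counts of Chil3 and Chil4 added into 1 gene, the log2 fold change was -1.98 (edgeR adjusted p = 0.00544). The sum does not depend on how reads shared by this pair were divided. It does not cover reads shared with other genes: 41.5% of Chil3 stretches occur in some other gene and 28.9% in Chil4.

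The estimated counts of the copies stood in different proportions across the libraries, and these depend on how reads shared by the pair were divided. The ratio of Chil3 to Chil4 counts was 30.5 and 31.7 in the GOF recipients, against 18.7 and 14.9 in the WT recipients. In the 10 libraries of the other experiments it lay between 3.12 and 7.62. Retnla counts over Chil3 counts were 2.33 and 1.63 in the GOF recipients and 0.743 and 0.881 in the WT recipients. Neither ratio was tested, and gene length cancels only between libraries, so the ratios compare libraries and not the genes.

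**Figure D2:**
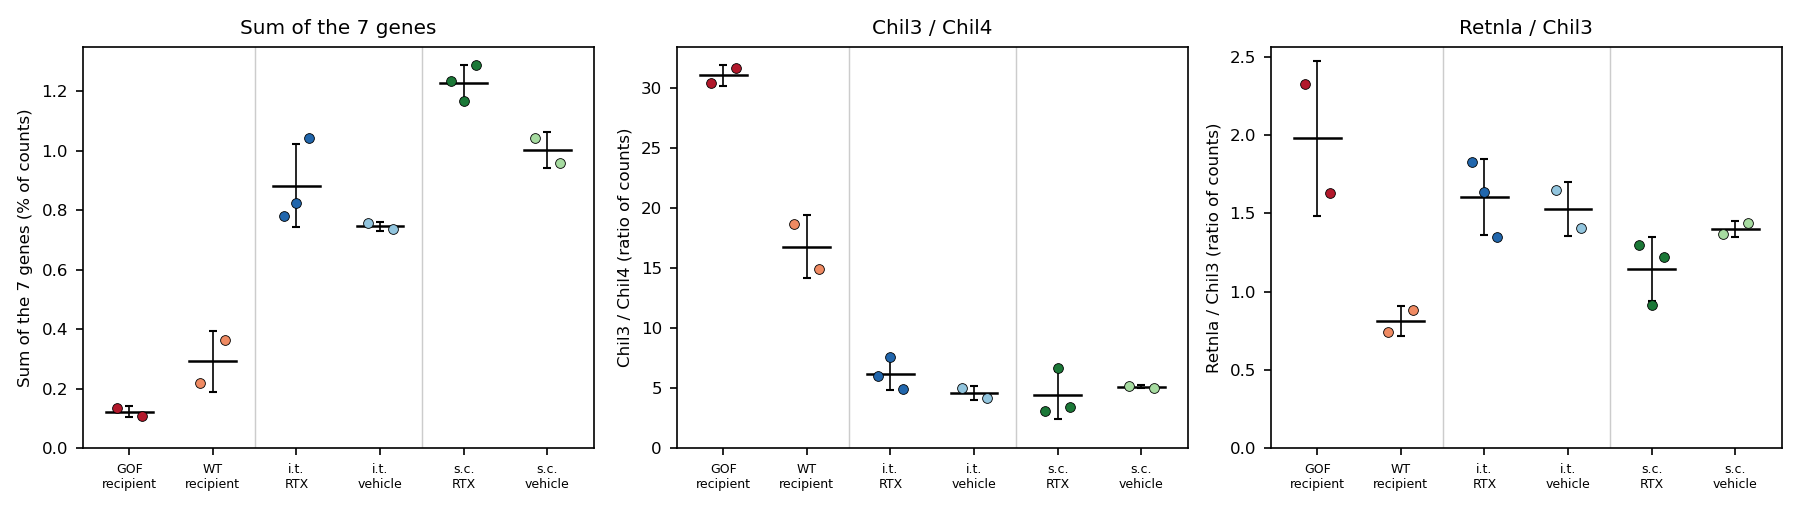
Sum of the 7 genes as a percent of all counts, ratio of Chil3 to Chil4 counts and ratio of Retnla to Chil3 counts, by group on linear axes from 0; points are libraries, lines are group means and bars are SDs. The GOF recipients hold the highest Chil3 to Chil4 ratios of the 14 libraries, 30.5 and 31.7, and the other experiments lie between 3.12 and 7.62.

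Arg1 measured 30.3 and 19.4 CPM in the GOF recipients and 63.7 and 104.9 CPM in the WT recipients. The groups did not overlap, yet the spread within each was wide, and the log2 fold change of -1.75 ± 0.37 (95% interval -2.77 to -0.73) had an edgeR adjusted p of 0.215. Retnla measured 848.9 and 576.3 CPM in the GOF recipients and 810.1 and 1470 CPM in the WT recipients. It was the single member whose groups overlapped (log2 fold change -0.67 ± 0.32, edgeR adjusted p = 0.490).

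The receptors and Egr2 had the same sign, with intervals that reached nearer to 0 than those of the chitinase-like genes. Mrc1 measured 68.7 and 109.6 CPM in the GOF recipients and 130.0 and 194.4 CPM in the WT recipients (log2 fold change -0.86 ± 0.31, edgeR adjusted p = 0.406). Mgl2 measured 26.9 and 22.6 CPM in the GOF recipients and 38.7 and 81.7 CPM in the WT recipients (-1.27 ± 0.46, edgeR adjusted p = 0.464). Egr2, the transcription factor, measured 9.18 and 10.4 CPM in the GOF recipients and 12.4 and 21.8 CPM in the WT recipients (-0.80 ± 0.26, edgeR adjusted p = 0.257). For each of the 3 the WT libraries differed from each other by more than the lower WT library differed from the nearer GOF library.

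WT recipient 2 was the higher WT library for every member, and the fold changes moved as libraries were left out. WT recipient 1 was also the WT library with high Rps3a2, 4.999 CPM, against 0.194 CPM in WT recipient 2 and at most 0.454 CPM in the GOF recipients. With 1 recipient library left out at a time, the log2 fold change ranged from -2.12 to -1.327 for Arg1 and -2.223 to -1.577 for Chil3. The range was -3.276 to -2.311 for Chil4, -1.051 to -0.159 for Retnla and -1.235 to -0.521 for Mrc1. It was -1.726 to -0.616 for Mgl2 and -1.162 to -0.316 for Egr2. Each such fit leaves a group with 1 library, which is assumed to vary like the other. DESeq2 and limma voom each called Arg1, Chil3 and Chil4, 3 of 7, against 1.79% of all genes in DESeq2 and 0.26% in voom.

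**Figure D3:**
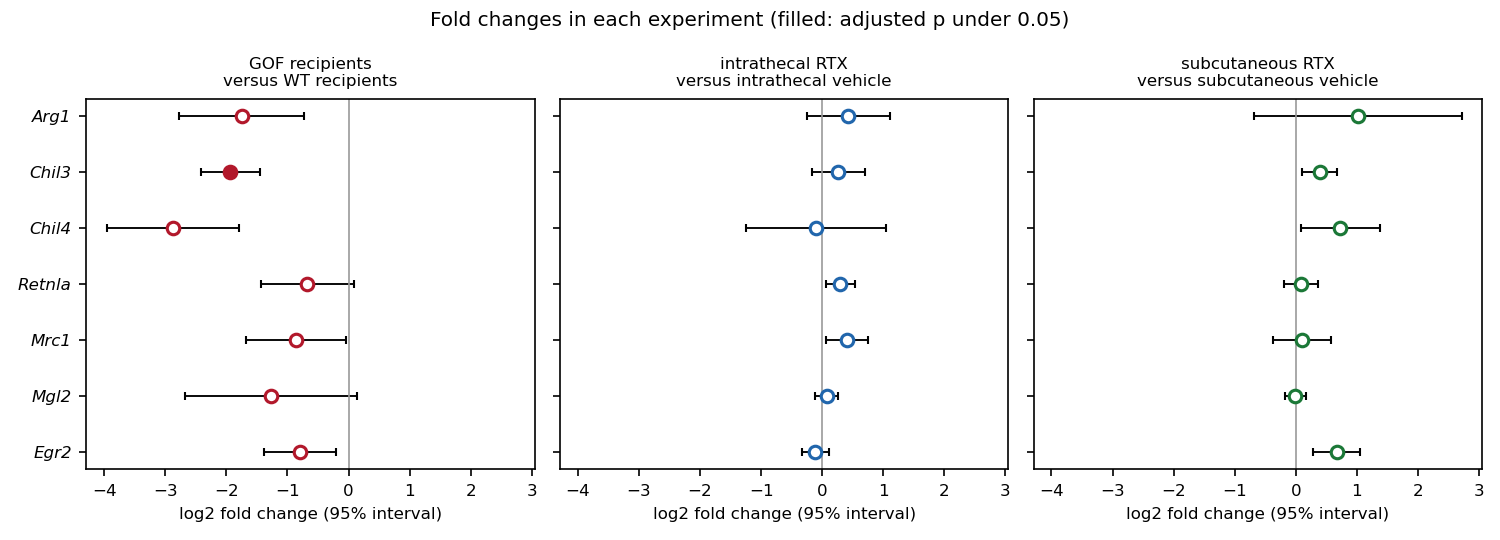
Log2 fold change of each member with its 95% interval in the 3 experiments, GOF over WT recipients, intrathecal RTX over vehicle and subcutaneous RTX over vehicle; a filled point has an edgeR adjusted p under 0.05. The filled point is Chil3 in the GOF recipients, at -1.94, and the 7 points of that panel all lie left of 0.

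Of all 17298 genes in this comparison, 2001 had an unadjusted p under 0.05. EdgeR called 0.717% of them, DESeq2 1.79% and voom 0.26%. The genes of the surrounding pathways are set beside these shares. Of 10 tested genes of IL-4 and IL-13 receptor and STAT6 signalling, 0 passed in edgeR (3 at an unadjusted p under 0.05, 1 in DESeq2, 0 in voom); all 10 had a log2 fold change below 0, with a median of -0.23. Il4ra, the shared receptor chain, had a log2 fold change of -0.19 and Stat6 of -0.03 (edgeR adjusted p = 0.960). The cytokines themselves were scarce: Il13 measured 0.403 and 0.165 CPM in the GOF recipients and 0.429 and 1.10 CPM in the WT recipients, and Il4 measured 0.179 and 0.1099 CPM in the GOF recipients and 0.333 and 0.670 CPM in the WT recipients. Neither passed the filter on low counts.

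Among 16 other genes known from alternative activation, 1 fell and none rose in edgeR (8 at an unadjusted p under 0.05, 6 in DESeq2, 0 in voom), with a median log2 fold change of -0.91. The gene that fell was Ccl22, a chemokine that attracts CCR4-bearing T cells, at 18.8 and 15.6 CPM in the GOF recipients and 33.6 and 49.0 CPM in the WT recipients (log2 fold change -1.25 ± 0.19, edgeR adjusted p = 0.0267, voom adjusted p = 0.0510). Among 10 paralogs of the members, 1 fell in edgeR (7 at an unadjusted p under 0.05 in either direction, 3 in DESeq2, 1 in voom). It was Retnlg, a relative of Retnla that neutrophils express (-1.22 ± 0.18, edgeR adjusted p = 0.0220). Of the 10, 9 had a log2 fold change below 0, and Retn was the 1 above 0. Retn was at 1.73 ± 0.56 (edgeR adjusted p = 0.306) and was called by DESeq2 (adjusted p = 0.0322). Clec10a, the paralog of Mgl2, had a log2 fold change of -0.92 ± 0.23 (edgeR adjusted p = 0.115). Of 11 transcription factors of alternative activation 0 passed in edgeR (4 at an unadjusted p under 0.05, 1 in DESeq2, 0 in voom). The log2 fold change was above 0 for 5 and below 0 for 6. The smallest p was that of Irf4 (-1.06 ± 0.24, edgeR adjusted p = 0.105). Bhlhe41 (0.44 ± 0.14, edgeR adjusted p = 0.235) and Cebpb (0.38 ± 0.15, edgeR adjusted p = 0.357), also among the 4, were higher in the GOF recipients. Of 11 genes of arginine and polyamine metabolism, the pathway arginase feeds, 0 passed in edgeR (2 at an unadjusted p under 0.05, 1 in DESeq2, 0 in voom), with a median of -0.09.

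Markers of the cells that can make these transcripts are given beside them, since in whole lung fewer cells of a type and less RNA per cell cannot be told apart. The macrophage markers were present in every library: Csf1r, the CSF1 receptor, measured 179.1 and 222.3 CPM in the GOF recipients and 246.6 and 280.3 CPM in the WT recipients, a log2 fold change of -0.39 (edgeR adjusted p = 0.339). Adgre1, a surface marker of mature macrophages, measured 68.9 and 78.5 CPM in the GOF recipients and 78.6 and 103.1 CPM in the WT recipients (-0.29, edgeR adjusted p = 0.489). The 16 markers of monocytes and interstitial macrophages summed to 7338 to 8123 CPM in the GOF recipients and 6819 to 6999 CPM in the WT recipients, but 13 of 16 had a log2 fold change below 0 (median -0.15), and the 3 above 0 were the abundant genes Lyz2 (0.24) and Apoe (0.35) and Lyve1 (0.22). Ccr2 fell in edgeR (-1.02, adjusted p = 0.0320) and was not called by voom (adjusted p = 0.0510). Markers of alveolar macrophages, Chil3 left out, summed to 638.2 to 669.6 CPM in the GOF recipients and 722.8 to 835.7 CPM in the WT recipients. Of 12, 7 had a log2 fold change below 0 and 5 above 0 (7 at an unadjusted p under 0.05, 3 in DESeq2, 1 in voom). In edgeR 1 fell, Itgax (CD11c, adjusted p = 0.0430), which voom called too. Fabp4 went the other way without passing in edgeR (log2 fold change 1.08 ± 0.20, edgeR adjusted p = 0.0505, DESeq2 adjusted p = 0.000858).

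Markers of other cell types were counted in the same way. Neutrophil markers summed to 200.5 to 286.0 CPM in the GOF recipients and 321.0 to 380.5 CPM in the WT recipients. All 7 tested had a log2 fold change below 0 (median -0.43), and 1 fell, Retnlg, which also stands among the paralogs (3 at an unadjusted p under 0.05, 1 in DESeq2, 1 in voom). Eosinophil markers summed to 15.3 to 26.5 CPM in the GOF recipients and 30.1 to 89.8 CPM in the WT recipients, with Epx, eosinophil peroxidase, at 0 in both GOF libraries. Of 6 tested, 0 passed in edgeR (4 at an unadjusted p under 0.05, 2 in DESeq2, 0 in voom). Markers of group 2 innate lymphoid cells, Arg1 left out, summed to 98.2 to 101.0 CPM in the GOF recipients and 151.9 to 156.0 CPM in the WT recipients, and 4 of 8 fell in edgeR (4 in DESeq2, 2 in voom), among them Il1rl1, the IL-33 receptor, which voom did not call. Of 10 dendritic cell markers 2 fell, Itgae and Flt3 (4 in DESeq2, 2 in voom). Of 10 T cell markers 4 fell in edgeR, Cd4, Ctla4, Foxp3 and Cd3e; DESeq2 called the same 4 and voom none. Heart muscle genes went the other way, with summed levels of 591.6 to 598.6 CPM in the GOF recipients and 266.5 to 380.8 CPM in the WT recipients, and 6 of 10 rose (7 in DESeq2, 5 in voom). The part of these cells, of heart tissue in the sample and of the Xist difference in the members' values was not tested.

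**Figure D4:**
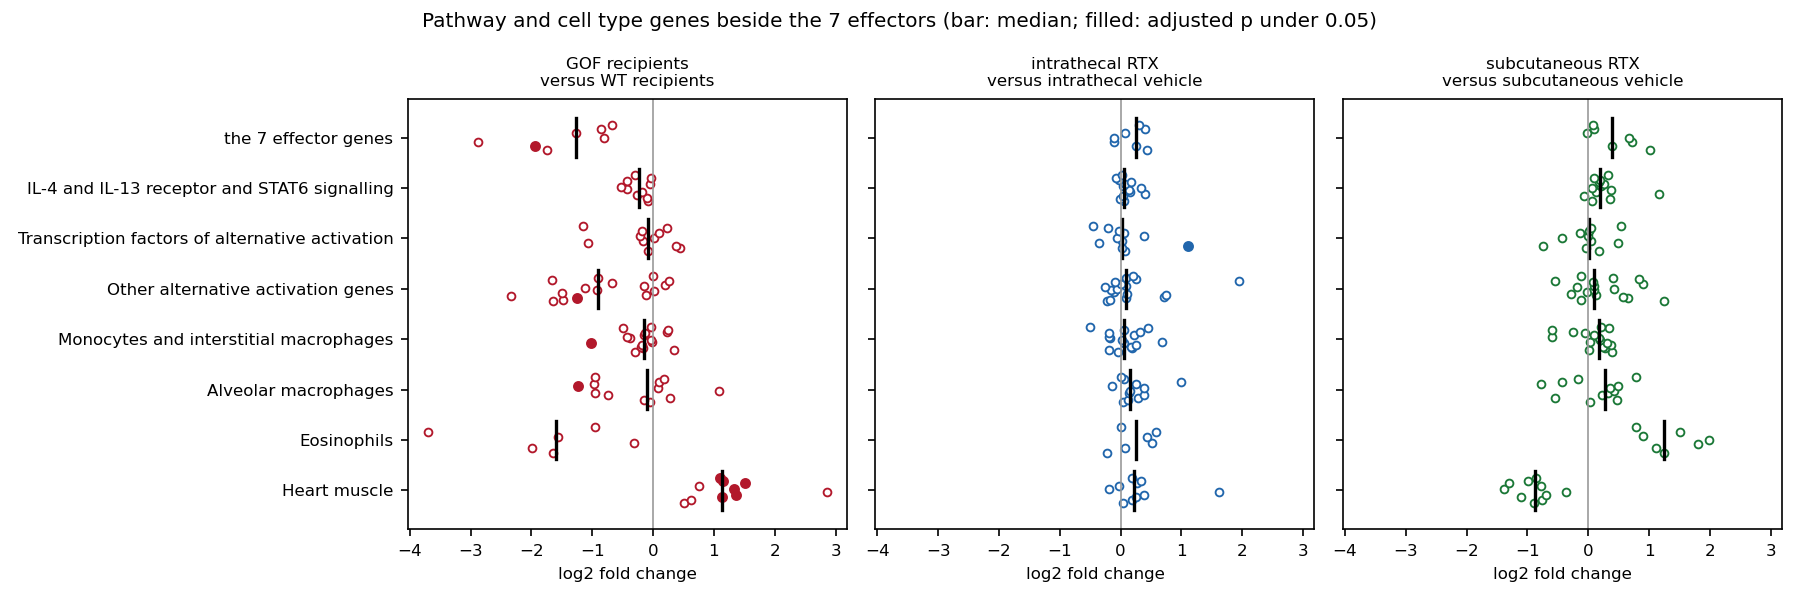
Log2 fold change of the genes of each list in the 3 comparisons, for the members and 7 lists, 1 row each; each point is a tested gene, black bars are medians, and filled points passed an edgeR adjusted p of 0.05. The median of the 7 members is -1.27 in the GOF recipients, 0.26 after intrathecal RTX and 0.39 after subcutaneous RTX, and 6 of 10 heart muscle genes rose in the GOF recipients.

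The intrathecal experiment asks what the loss of spinal afferents does. None of the 7 members passed the threshold: edgeR called 0 of 7, against 0.311% of 17360 genes. At an unadjusted p under 0.05 there were 2 of 7, Retnla and Mrc1, against 11.5% of all genes, and DESeq2 and limma voom each called 0 of 7, against 1.42% of genes in DESeq2 and 0.213% in voom. In 3 of 7, Arg1, Retnla and Mrc1, all RTX libraries lay above both vehicle libraries, as they did for 13.5% of genes. The median log2 fold change of the 7 was 0.26, and that of all genes 0.01.

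Retnla measured 4296, 4479 and 5008 CPM after RTX and 4014 and 3558 CPM after vehicle, without overlap (log2 fold change 0.30 ± 0.11, 95% interval 0.06 to 0.54, edgeR adjusted p = 0.328). Mrc1 measured 331.2, 253.2 and 368.7 CPM after RTX and 244.4 and 242.8 CPM after vehicle (0.40 ± 0.15, edgeR adjusted p = 0.375). The second RTX library of Mrc1 was close to the vehicle libraries and the other RTX libraries were higher. Arg1 measured 243.3, 236.9 and 398.8 CPM after RTX and 208.4 and 233.8 CPM after vehicle, and RTX replicate 3 stood above the rest (0.43 ± 0.27, edgeR adjusted p = 0.612).

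The third RTX library was also the highest for the chitinase-like genes. Chil3 measured 2349, 2734 and 3712 CPM after RTX and 2431 and 2530 CPM after vehicle (0.26 ± 0.19, edgeR adjusted p = 0.647). Chil4 measured 391.4, 358.6 and 753.4 CPM after RTX and 483.8 and 607.6 CPM after vehicle, with the vehicle libraries between the RTX libraries. Its log2 fold change was -0.10 ± 0.41, and the 95% interval of -1.25 to 1.04 allows a change of more than 1 on the log2 scale in either direction.

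Mgl2 and Egr2 were measured more tightly. Mgl2 was 180.8, 174.1 and 155.0 CPM after RTX and 163.3 CPM in both vehicle libraries (0.07 ± 0.08, 95% interval -0.11 to 0.26, edgeR adjusted p = 0.784). Egr2 was 25.1, 23.4 and 23.7 CPM after RTX and 27.9 and 24.8 CPM after vehicle (-0.11 ± 0.10, edgeR adjusted p = 0.708). Both groups overlapped for each gene.

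Of the 13 signalling genes 0 passed in edgeR (1 at an unadjusted p under 0.05, 0 in DESeq2 and voom). The same held for the 17 other alternative activation genes (4 at an unadjusted p under 0.05, 3 in DESeq2, 0 in voom) and the 12 paralogs (1 at an unadjusted p under 0.05, 0 in DESeq2 and voom), and for 12 genes of arginine and polyamine metabolism (3 at an unadjusted p under 0.05, 0 in DESeq2 and voom). Il13 measured 7.81, 6.86 and 7.26 CPM after RTX and 6.05 and 8.79 CPM after vehicle. Of 11 transcription factors 1 rose, Cebpb, which binds a known enhancer of Arg1 in mouse macrophages, at 93.4, 95.3 and 86.7 CPM after RTX and 43.4 and 42.3 CPM after vehicle (log2 fold change 1.12 ± 0.08, edgeR adjusted p = 0.000399). In the subcutaneous experiment Cebpb was 87.6, 29.7 and 33.8 CPM after RTX and 87.4 and 78.8 CPM after vehicle. There RTX replicates 2 and 3, the libraries with high Rps3a2, were the low ones, whereas RTX replicate 1 and the second vehicle library, also low in Hmga2, were not. Eosinophil markers summed to 77.4 to 131.4 CPM after intrathecal RTX and 91.4 to 126.3 CPM after its vehicle, and neutrophil markers to 98.9 to 123.5 CPM after RTX and 88.1 to 92.3 CPM after vehicle. Of 6 neutrophil markers tested 5 had a log2 fold change above 0 (median 0.48), and 0 passed in edgeR (2 at an unadjusted p under 0.05, 0 in DESeq2 and voom). The part of these cells in the members' values was not tested.

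The subcutaneous experiment asks the same of systemic ablation, at other doses and by another route. No gene of 17363 passed the edgeR threshold, so the share called was 0% and 0 of 7 members were called; 3153 genes (18.2%) had an unadjusted p under 0.05, and DESeq2 called 744 genes (4.28%) and voom 0. Of the members, 3 of 7, Chil3, Chil4 and Egr2, had an unadjusted p under 0.05; DESeq2 called 2, Chil3 (adjusted p = 0.0215) and Egr2 (adjusted p = 0.00915), and voom 0. In 4 of 7, Arg1, Chil3, Chil4 and Egr2, every RTX library lay above both vehicle libraries, as for 20.6% of genes. The median log2 fold change of the 7 was 0.39, and that of all genes 0.

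Egr2 measured 42.3, 44.8 and 50.5 CPM after RTX and 23.3 and 33.9 CPM after vehicle (log2 fold change 0.67 ± 0.16, 95% interval 0.28 to 1.05, edgeR adjusted p = 0.137). All RTX libraries were higher, by the least against the second vehicle library. Chil3 measured 4237, 5143 and 4703 CPM after RTX and 3851 and 3253 CPM after vehicle (0.39 ± 0.13, edgeR adjusted p = 0.187). Chil4 measured 1357, 766.4 and 1350 CPM after RTX and 736.7 and 645.9 CPM after vehicle (0.73 ± 0.26, edgeR adjusted p = 0.237); its second RTX library stood near the vehicle libraries.

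Arg1 measured 659.9, 443.1 and 530.0 CPM after RTX and 122.3 and 411.3 CPM after vehicle. The vehicle libraries differed by more than any pair of RTX libraries, and the log2 fold change of 1.01 ± 0.61 had a 95% interval of -0.69 to 2.71 (edgeR adjusted p = 0.456). Without the second vehicle library the log2 fold change was 2.14 for Arg1 and 0.96 for Egr2. The first vehicle library, with high Hmga2 (6.14 CPM), then stands alone for its group. With each library left out in turn the range was 0.386 to 2.143 for Arg1 and 0.417 to 0.964 for Egr2.

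For the remaining members the groups overlapped. Retnla measured 5511, 4713 and 5754 CPM after RTX and 5265 and 4675 CPM after vehicle (0.09 ± 0.12, edgeR adjusted p = 0.748). Mrc1 measured 314.8, 306.8 and 262.3 CPM after RTX and 211.0 and 333.1 CPM after vehicle (0.10 ± 0.20, edgeR adjusted p = 0.825). Mgl2 measured 222.3, 244.0 and 222.5 CPM after RTX and 226.6 and 231.8 CPM after vehicle, with a log2 fold change of -0.01 ± 0.07 and a 95% interval of -0.18 to 0.16, the narrowest of the 7.

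In the subcutaneous experiment no gene of the related lists passed in edgeR: 0 of 13 signalling genes (2 at an unadjusted p under 0.05, 2 in DESeq2, 0 in voom), 0 of 17 other alternative activation genes (6, 3 and 0), 0 of 11 transcription factors (2, 1 and 0), 0 of 11 paralogs (2, 1 and 0) and 0 of 11 arginine and polyamine genes (1, 0 and 0), the counts in brackets in the same order. Il13 measured 15.8, 13.1 and 13.3 CPM after RTX and 6.82 and 15.0 CPM after vehicle, and it was the first vehicle library, the lower in Arg1 and Egr2, that was low. Eosinophil markers summed to 226.4 to 351.0 CPM after RTX and 81.5 to 160.6 CPM after vehicle, and all 7 had an unadjusted p under 0.05 (0 past the edgeR threshold, 4 in DESeq2, 0 in voom). Prg2, eosinophil major basic protein, measured 24.6, 14.3 and 19.5 CPM after RTX and 4.11 and 9.49 CPM after vehicle (log2 fold change 1.51, edgeR adjusted p = 0.168). Neutrophil markers summed to 179.3 to 239.9 CPM after RTX and 93.1 to 150.2 CPM after vehicle; all 6 tested had a log2 fold change above 0 (median 0.61), and 0 passed in edgeR (3 at an unadjusted p under 0.05, 2 in DESeq2, 0 in voom). Alveolar macrophage markers summed to 1219 to 1343 CPM after RTX and 1055 to 1142 CPM after vehicle. Heart muscle genes summed to 149.2 to 189.0 CPM after RTX and 125.8 to 462.7 CPM after vehicle. The part of these cells in the members' values was not tested.

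The difference between the effects was tested for each pair of experiments, in 1 fit of both, with no samples shared. The effect of GOF recipients minus that of subcutaneous RTX was below 0 for all 7 members, as for 48.7% of 18074 genes. It passed the edgeR threshold for 2 of 7, both lower; 2.87% of genes passed, and 1.78% were lower. It was -2.32 ± 0.27 for Chil3 (log2, 95% interval -2.92 to -1.71, adjusted p = 0.0177) and -3.60 ± 0.51 for Chil4 (95% interval -4.78 to -2.41, adjusted p = 0.0257). Without GOF recipient 1, GOF recipient 2 or the first subcutaneous vehicle library, 0 of 7 passed, and without the first subcutaneous RTX library Chil3 alone passed. Over the left-out libraries the Chil3 difference ranged from -2.61 to -1.96 and that of Chil4 from -4.01 to -3.04.

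The effect of GOF recipients minus that of intrathecal RTX was also below 0 for all 7, as for 50.8% of genes. EdgeR called 0 of 7, against 0.0333% of 17993 genes, with 7 of 7 at an unadjusted p under 0.05 (11.8% of genes), 3 called by DESeq2 (1.61% of genes) and 0 by voom (0.0278%); Chil3 came nearest (-2.19 ± 0.33, adjusted p = 0.0510). The Chil3 difference ranged from -2.49 to -1.83 as each library was left out. Of the subcutaneous minus the intrathecal RTX effect edgeR called 0 of 7, against 0.0556% of 17972 genes. Egr2, at 0.79 ± 0.20 (edgeR adjusted p = 0.148), was the 1 member with an unadjusted p under 0.05 (15.2% of genes) and the 1 that DESeq2 called (1.76% of genes), and voom called 0 (0.0612%). With each library left out in turn the difference of Egr2 ranged from 0.536 to 1.086.

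Over the 14 libraries, with the mean of each experiment subtracted, Pearson's r of log2 CPM between pairs of members lay between 0.507 (Retnla and Mrc1) and 0.930 (Chil3 and Chil4). With the group means subtracted, so that only the variation between replicates counts, the range was 0.0645 (Retnla and Mrc1) to 0.766 (Retnla and Mgl2). These are descriptions, since the members share library, depth and experiment. Among 13390 genes, the 3 most like each member by the first measure were named. For Chil4 the nearest was Chil3 itself, then Kif14, a mitotic kinesin, and Ubash3b. For Chil3 they were Ska1, a kinetochore protein, Ppp1r3b and Olr1, a receptor for oxidised LDL (r = 0.933 to 0.938). With the group means subtracted, Chil3 ranked 379 for Chil4 (r = 0.645) and Ska1 ranked 203 for Chil3 (r = 0.721). Chil3 and Chil4 also share reads whose division is uncertain.

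For Mgl2 the nearest were the chemokines Ccl11 (r = 0.966) and Ccl17 (r = 0.954) and the lectin Cd209a (r = 0.956). For Egr2 they were the potassium channel Kcna3, Ocstamp, known from cell fusion, and Csf2ra, a chain of the GM-CSF receptor (r = 0.950 to 0.965). Within the intrathecal experiment alone, Ccl11, Ocstamp and Csf2ra had an r below 0 with their member, as Cd209a did within the subcutaneous one. For Arg1 the nearest were Plekho2, Cd84 and Haspin (r = 0.949 to 0.958). For Mrc1 they were Gart, an enzyme of purine synthesis, Rrp12 and Stt3a (r = 0.954 to 0.967), and for Retnla Ccdc18, Lmo4 and Agr2, an endoplasmic reticulum protein of secretory cells (r = 0.902 to 0.917).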

How the data were processed

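RNA was measured in 14 libraries. The authors deposited 3 tables of estimated counts per gene, 1 per experiment, in which 24.2% of entries had a fractional part. Per the submitters' processing notes the tools were FastQC 0.11.8, Trim Galore 0.6.6, STAR 2.7.5b and Salmon 1.2.1 and the build GRCm38; the annotation release and strand setting are not given in the sources used here. Per the labels' protocols, mRNA was enriched with oligo-dT beads and libraries were made with the NEBNext Ultra II kit.

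Counts were rounded. Fits, 1 per experiment, used edgeR 4.0.16 (R 4.3.3) with TMM factors, the filter filterByExpr (minimum count 10, minimum total 15), the robust quasi-likelihood F test and Benjamini-Hochberg adjustment over all genes tested, threshold 0.05. All 7 members passed the filter in each experiment. Differences between effects were contrasts in 1 fit of 2 experiments. SE is the log2 fold change over the root of F, and intervals use the moderated degrees of freedom. CPM uses each library's total. Replicates differed beyond sampling noise (chi-square per degree of freedom 8.92 to 21.3) and were counted separately. Fits were tested on simulated data.

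The members and gene lists were chosen with earlier results of these data known. Genes named were the members, the 3 genes most like each, listed genes past the threshold or with the smallest p, and fixed markers. Rps3a2, Hmga2, Xist, Ddx3y, Eif2s3y, Fabp4, Retn and Bhlhe41 were named after their values were seen. Positions came from GENCODE M21 by identifier (54094 of 54347 matched in any version), and promoters were in RefSeq for 6 of 7. Alternatives were other scaling, other low-count filters, DESeq2 1.42.0, limma 3.58.1 voom, a replicate block, a prior that is not robust, a joint fit of the 14 libraries, Chil3 and Chil4 summed, and each library left out.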

Additional observations from a re-analysis of the deposited data

Results flagged for a closer look

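The response of Chil3 and Chil4 differed between experiments by a test of the difference itself. The effect in GOF recipients minus the effect of subcutaneous RTX was -2.318 on the log2 scale for Chil3 and -3.597 for Chil4 (edgeR adjusted p = 0.0177 and 0.0257). Each was lower in GOF than in WT recipients in both GOF libraries and higher after subcutaneous RTX than after vehicle in 3 of 3 RTX libraries. Without GOF recipient 1, GOF recipient 2 or the first subcutaneous vehicle library neither passed.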

How the results depend on the processing

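The fall of Chil3 in GOF recipients passed under 15 of 15 alternatives (log2 fold change -2.22 to -1.58, highest adjusted p 0.0498). Other calls moved, and the cause was not tested. In GOF against WT recipients 1 of 7 members was called, against 0.717% of all genes. No low-count filter gave 6, against 2.81% of genes. DESeq2, limma voom, no robust prior, the replicate block and library state gave 3 each, against 1.79%, 0.26%, 0.457%, 0.711% and 0.964% of genes. Library state is a term for high Rps3a2, high Hmga2 or neither, chosen after seeing the data. For intrathecal RTX (0 called) no filter gave 1, and left-out libraries 0. For subcutaneous RTX (0) no filter gave 1, DESeq2 2, and left-out libraries 0 to 2. For the difference of the RTX effects (0) DESeq2 gave 1 and left-out libraries 0 to 1. For GOF minus subcutaneous RTX 2 were called, against 2.87% of all genes. No filter gave 7 (7.86% of genes), DESeq2 4 (7.72%), library state 5 (3.94%) and the replicate block 1 (0.238%). Chil3 and Chil4 summed gave 1 (2.86%), with 1 member fewer to call. Under the block Chil3 had -2.28 (edgeR adjusted p = 0.0507). For GOF minus intrathecal RTX (0) no filter gave 7, DESeq2 3, left-out libraries 0 to 4, and total counts alone, a filter of 1 CPM in 2 libraries, the replicate block, no robust prior, library state and a joint fit of the 14 libraries 1 each.

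Signs turned for small log2 fold changes. Library state was fitted over all 14 libraries. In the intrathecal experiment state and RTX coincide, so the state term there is taken from the other experiments. These values therefore do not part RTX from the split. With library state in the model the intrathecal RTX values were -0.16 for Chil3, -0.36 for Retnla and -0.58 for Mgl2. The subcutaneous value of Mgl2 was 0.35. The difference of the RTX effects was 0.82 for Retnla, 0.11 for Mrc1 and 0.93 for Mgl2. Mgl2 after subcutaneous RTX was 0.002 with total counts alone and 0.009 under the replicate block. With libraries left out the ranges were -0.530 to 0.093 for Chil4 after intrathecal RTX, -0.058 to 0.011 for Mgl2 and -0.195 to 0.471 for Mrc1 after subcutaneous RTX, and -0.033 to 1.726 for Arg1 and -0.591 to 0.078 for Mrc1 in the difference of the RTX effects.

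Over all genes, GOF against WT recipients gave 124 calls, and 309 with DESeq2, 45 with voom, 79 with no robust prior, 50 with all 14 libraries, 807 without a filter and 83 to 919 with libraries left out (919 without WT recipient 1). Intrathecal RTX gave 54, and 247, 37, 34, 7, 655 and 19 to 40, with 5 under library state. Subcutaneous RTX gave 0, and 744 with DESeq2, 807 without a filter, 71 with all 14 libraries, 184 under library state and 0 to 871 with libraries left out (871 without the second vehicle library). The difference of the RTX effects gave 10, and 317 with DESeq2, 147 without a filter, 0 with all 14 libraries, 6 under library state and 0 to 90 with libraries left out. GOF minus subcutaneous RTX gave 519, and 1395 with DESeq2, 268 with voom, 2447 without a filter, 1000 with all 14 libraries, 43 under the replicate block and 1 to 1317 with libraries left out. GOF minus intrathecal RTX gave 6, and 289 with DESeq2, 932 without a filter, 13 with the filter of 1 CPM, 29 with total counts alone, 16 with no robust prior, 12 with all 14 libraries, 21 under the replicate block, 25 under library state and 0 to 279 with libraries left out.

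The labels state no pairing. Deviations of same-numbered libraries correlated at -0.0442 in the recipients, -0.253 and -0.213 in the intrathecal and -0.162 and -0.141 in the subcutaneous experiment, so the numbers are taken as names and the block calls above are no paired test. The lowest estimated count of a member in any library was 189, for Egr2 in a GOF recipient, above the floor of 3 counts; depth limits Il4 and Il13 in the recipients, and 2 or 3 libraries a group limit the rest.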

Other observations

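Other gene groups of the lung were read from the same fits. Of 10 genes of airway secretory and goblet cells, 0 passed in edgeR in the GOF recipients (6 at an unadjusted p under 0.05, 5 in DESeq2, 2 in voom), with a median log2 fold change of -0.44. These genes had different signs: the mucin gene Muc5ac (-2.99 ± 0.35, edgeR adjusted p = 0.0587) and Clca1, a secreted goblet cell protein (-3.23 ± 0.41, adjusted p = 0.0686), had the most negative values, and both were called by DESeq2 and voom, while the club cell genes Scgb3a2 (0.73 ± 0.17, edgeR adjusted p = 0.0798), Scgb3a1 (0.62), Cyp2f2 (0.54) and Scgb1a1 (0.41) lay above 0. After subcutaneous RTX all 10 lay below 0, with a median of -0.44 and 0 of 10 past the edgeR threshold (5 at an unadjusted p under 0.05, 3 in DESeq2, 0 in voom), and the smallest p was that of Scgb1a1, the secretory protein of club cells (-1.07 ± 0.18, edgeR adjusted p = 0.101). There the club cell genes had the most negative values, Scgb3a2 -1.77 ± 0.50 and Cyp2f2 -1.37 ± 0.38 (edgeR adjusted p = 0.214 and 0.199), and Muc5ac was at -0.04 ± 0.14. Of 8 alveolar type 2 genes, 0 passed in edgeR in the GOF recipients, 0 at an unadjusted p under 0.05 and 0 in DESeq2 and voom, with a median of -0.04.

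Stress genes of tissue handling differed in the intrathecal experiment, where 1 of 9 rose and 2 fell in edgeR after RTX. Hspb1 rose (log2 fold change 1.92 ± 0.12, edgeR adjusted p = 0.000227), and the heat shock genes Dnajb1 (-1.21 ± 0.15, adjusted p = 0.0382) and Hspa1b (-2.58 ± 0.26, adjusted p = 0.0449) fell. In the GOF recipients 0 of these 9 genes passed in edgeR (2 at an unadjusted p under 0.05, 1 in DESeq2, 0 in voom), and after subcutaneous RTX 0 of 9 (2 at an unadjusted p under 0.05, 0 in DESeq2 and voom). Their part in the members' values was not tested.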
